A study of Mus musculus with 14 samples.

Results

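The cytochrome P450 and conjugation enzymes examined here were defined by a rule on gene symbols. It takes the P450 families Cyp1 to Cyp4, the UDP-glucuronosyltransferases (Ugt) and the cytosolic sulfotransferases (Sult). It also takes the glutathione S-transferases (Gst) of the alpha, kappa, mu, omega, pi, theta and zeta classes. The rule uses the symbol alone, but it was set with earlier results of these data known. The rule found 88 probes for 85 genes, of 15099 singly named genes and 23232 probes in all, and all 88 were among the 23230 tested. The P450s made up 49 probes for 46 genes, the Ugt genes 7 probes, the Sult genes 12 and the Gst genes 20. Cyp1a1, Cyp2b13 and Cyp4f15 had 2 probes each.

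RNA came from stably modified lines of MIN6, an insulin-secreting mouse beta-cell line obtained at passage 24, and the lines were kept 4 days in 5 mM glucose. Sir2OE1 and Sir2OE2 carried Sirt1, an NAD-dependent protein deacetylase, from the retrovirus pBabe-Sirt1, were selected in G418 at 280 µg/ml, and had as control a pool of RNA from Neo1 and Neo2, lines infected with the control virus pBabe-neo. Sir2KD1 and Sir2KD2 had received vectors for 2 different siRNAs against Sirt1 together with a neo marker, were selected in G418 at 400 µg/ml, and were compared with the empty-vector line mU6pro. All lines and controls thus share the MIN6 parent, selection of the controls is not described in the labels, and each comparison rests on individual modified lines. Sir2OE1 and Sir2KD1 had 3 2-channel arrays each and Sir2OE2 and Sir2KD2 had 4 each, 14 in all, with the channels exchanged within every line. Nothing in the labels calls slides of a line separate cultures, so p-values reflect array-to-array spread, possibly technical alone, and leave out the spread of the controls.

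In this pathway, P450s oxidise lipophilic compounds, drawing electrons from NADPH through P450 reductase, and conjugating enzymes then attach glucuronic acid (Ugt), sulfate (Sult) or glutathione (Gst) before transporters export the product. The system is known best from liver, where the aryl hydrocarbon receptor, the receptors Nr1i2 and Nr1i3 and the oxidant-responsive factor Nfe2l2 control many of its genes. Islet cells are known for low antioxidant enzyme levels, and the arrays give ratios to a control, not levels, so how much of each enzyme MIN6 cells make is not shown here.

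Every value below is a log2 ratio of array channels, turned so that arrays with the modified line in either channel read the same way, and corrected for the channel offset fitted for the overexpression or the knockdown arrays. The direction of the deposited ratio (not given in the sources used here) limits the naming to a plus and a minus side, and plus may mean either more or less RNA than in the control. A statement that overexpressing and knockdown lines lie on the same or opposite sides also assumes that the same channel is on top in both kinds. The turn itself is an assumption that was checked: if it holds, lines of a kind should differ in the turned part of a model with a turned and an unturned term, and limma called 57 probes for the turned and 1 for the unturned difference between the overexpressing lines. Between the knockdown lines it called 175 and 71, but without slide 1 of Sir2KD2 it called 84 and 178, the other way round, so the check does not settle the turn there and all knockdown sides rest on the assumption. A probe is called when its adjusted p in limma, fitted over all 14 arrays and adjusted by Benjamini-Hochberg over 23230 probes, is under 0.05. The Sirt1 probe itself was called in no line, at 0.08, -0.33, -0.10 and 0.13 in Sir2OE1, Sir2OE2, Sir2KD1 and Sir2KD2. Of 8 beta-cell marker genes measured, Neurod1, Pdx1, Slc2a2 and Isl1 were called in at least 1 line, while Iapp in all arrays and Ins2 in the overexpression arrays carried a ratio pattern that many other probes share, and of 9 hepatocyte markers only Serpina1a was, at 0.95, 1.90, -3.99 and -3.34. Slc2a2, the beta-cell glucose transporter, was on the minus side in every line, at -0.90, -1.50, -2.08 and -0.89. The beta-cell markers did not move as one. Isl1 was called at 0.70 in Sir2OE1 but at -0.78 in Sir2KD1 and -0.59 in Sir2KD2. Neurod1 and Pdx1 were called on the minus side alone. Nkx6-1, called in no line, was at 0.09, 0.42, 0.37 and 0.25. The part of cell identity in the results below was not tested.

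For the members called in at least 2 lines, the 250 bases before the RefSeq gene start (GRCm38.p6) are printed to show the sequence upstream of each gene. The lines read 5′ to 3′ on the gene's strand, and capitals mark matches to the motifs searched on both strands: the antioxidant response element core TGACNNNGC, the aryl hydrocarbon receptor core GCGTG, the nuclear receptor core AGGTCA, the TATA box TATAAA, the CCAAT box CCAAT and the HNF1 core GTTAAT. Gstm2 lies at chr3:107986421-107986670 on the minus strand and Gstm3 at chr3:107969175-107969424 on the minus strand. Gstt1 lies at chr10:75797732-75797981 on the minus strand, Ugt1a6a at chr1:88134559-88134808 on the plus strand and Sult1d1 at chr5:87569007-87569256 on the minus strand.
Gstm2: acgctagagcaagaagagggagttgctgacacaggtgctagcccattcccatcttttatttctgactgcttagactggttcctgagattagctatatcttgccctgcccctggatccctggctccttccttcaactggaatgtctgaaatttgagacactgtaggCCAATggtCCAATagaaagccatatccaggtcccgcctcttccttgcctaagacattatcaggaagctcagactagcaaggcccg
Gstm3: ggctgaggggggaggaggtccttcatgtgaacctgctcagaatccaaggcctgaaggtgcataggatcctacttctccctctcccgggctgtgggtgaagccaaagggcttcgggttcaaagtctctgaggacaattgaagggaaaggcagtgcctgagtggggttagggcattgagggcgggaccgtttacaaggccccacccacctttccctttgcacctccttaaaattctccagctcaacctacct
Gstt1: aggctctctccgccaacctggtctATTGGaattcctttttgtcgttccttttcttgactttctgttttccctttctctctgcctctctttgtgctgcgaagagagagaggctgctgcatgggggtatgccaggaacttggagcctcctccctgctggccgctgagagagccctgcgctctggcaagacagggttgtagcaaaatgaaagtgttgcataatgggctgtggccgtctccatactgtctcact
Ugt1a6a: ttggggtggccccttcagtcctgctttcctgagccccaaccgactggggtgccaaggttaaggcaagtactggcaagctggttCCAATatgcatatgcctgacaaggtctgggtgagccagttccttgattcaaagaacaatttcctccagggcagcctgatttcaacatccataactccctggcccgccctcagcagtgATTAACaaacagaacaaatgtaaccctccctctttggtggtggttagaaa
Sult1d1: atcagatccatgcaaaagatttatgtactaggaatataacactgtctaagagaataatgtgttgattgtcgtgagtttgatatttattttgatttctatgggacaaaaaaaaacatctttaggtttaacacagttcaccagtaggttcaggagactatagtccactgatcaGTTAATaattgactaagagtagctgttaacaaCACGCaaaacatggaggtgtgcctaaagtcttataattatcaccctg
Gstm2 had the CCAAT box at 85 and 77 bases before the start, Gstt1 at 226 on the other strand and Ugt1a6a at 167. Ugt1a6a had the HNF1 core at 50 bases on the other strand and Sult1d1 at 79, and Sult1d1 had the aryl hydrocarbon receptor core at 47 on the other strand. Gstm3 had none of these letters, and none of the 5 had the antioxidant response element core. Among 90 promoters found for 74 of the 85 member genes, CCAAT was in 50.0%, TATAAA in 27.8%, AGGTCA in 17.8%, GCGTG in 16.7%, GTTAAT in 11.1% and TGACNNNGC in 5.56%. Over all 32851 promoters of that length the shares were 33.8%, 12.4%, 14%, 28.2%, 6.43% and 10.2%. GC content ran from 34.0% for Sult1d1 to 56.0% for Gstm3. A match is a run of letters, not a shown binding site.

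Most member probes were not called in any line, and those that were called belonged mainly to the conjugating enzymes. In Sir2OE1, 5 of 88 were called, all on the minus side (Gstm2, Gstm3, Gstt1, Ugt1a6a and Sult2b1), where 1.06% of all probes were called, 0.469% on the plus and 0.594% on the minus side. In Sir2OE2, 6 were called, again all on the minus side (Sult1d1, Gstm2, Gstm3, Gstt1, Ugt1a6a and Ugt2b37), where 2.81% of all probes were called, 1.43% on the plus and 1.38% on the minus side. In Sir2KD1, 3 were called (Cyp1b1 on the plus side, Sult1d1 and Ugt1a6a on the minus side), where 3.59% of all probes were called, 1.6% on the plus and 1.98% on the minus side, so the members' share was near the background. In Sir2KD2, 2 were called (Gstm2 on the plus side and Sult1d1 on the minus side), where 1.34% of all probes were called, 0.603% on the plus and 0.74% on the minus side. Over the lines, 8 probes, or 9.09% of the members, were called at least once, against 6.4% of all probes.

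**Figure D1:**
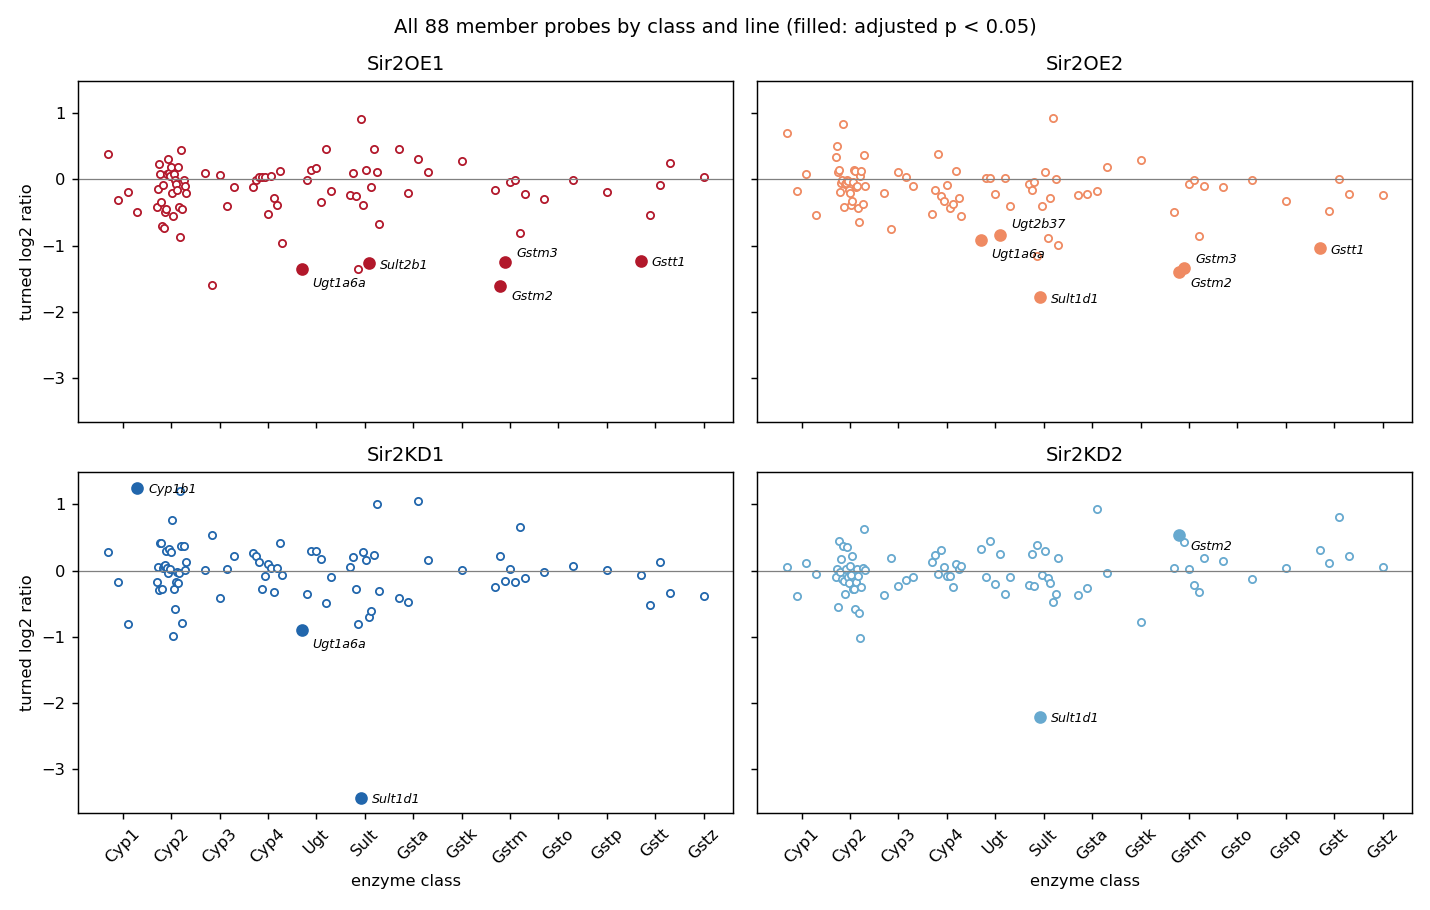
Turned log2 ratio (y axis) of all 88 member probes by enzyme class (x axis), 1 panel per line, with filled points for probes at adjusted p under 0.05 in limma. The called points in the overexpressing lines all lie below 0 and belong to the Ugt, Sult, Gstm and Gstt classes, and Sult1d1 lies lowest in both knockdown lines, at -3.43 and -2.21.

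Gstm2, Gstm3, Gstt1 and Ugt1a6a were the members called in Sir2OE1 and Sir2OE2 alike, all on the minus side. Of all probes, 0.551% met this condition on either side, 0.194% on the plus and 0.357% on the minus side. The lines share the pooled Neo control RNA, so the pair of results is not independent. Members lay below 0 in both overexpressing lines for 44 of 88 probes (50%), called or not, against 29% of all probes, and above 0 in both for 12 (13.6%) against 28.1%. In the knockdown lines 21 (23.9%) lay below 0 in both, against 26.5%. The median member was at -0.12 in Sir2OE1 and -0.14 in Sir2OE2, and at 0.02 and -0.04 in Sir2KD1 and Sir2KD2, while the median over all probes lay at -0.0015, -0.0036, 0.0236 and -0.0027.

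Gstm2, a mu-class transferase that joins glutathione to electrophilic compounds, was the member with the smallest adjusted p in Sir2OE2 and Sir2OE1. Its 3 Sir2OE1 arrays read -1.56, -1.69 and -1.57, and its 4 Sir2OE2 arrays -1.24, -1.52, -1.44 and -1.40. The knockdown arrays read 0.39, 0.24 and 0.02 in Sir2KD1 and 0.47, 0.43, 0.65 and 0.60 in Sir2KD2. All 7 overexpression arrays were thus below all 7 knockdown arrays, with no overlap. How many of all probes separate in this way was not counted, here or for the genes below. The arrays of a kind come from 2 lines that share a control, so they are not 7 independent replicates. The estimates were -1.61 ± 0.12 (SE, n = 3) in Sir2OE1, a 3.05-fold difference from control with limma adjusted p = 0.000182, and for Sir2OE2 -1.40 ± 0.10 (SE, n = 4, adjusted p = 7.16e-05). In Sir2KD2 it was 0.54 ± 0.10 (SE, n = 4, limma adjusted p = 0.0315), a call lost in 8 of 14 fits that left out an array, and in Sir2KD1 it was 0.22 ± 0.12 (adjusted p = 0.42).

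Gstm3 is another mu-class transferase. It read -1.35, -1.20 and -1.20 in Sir2OE1 and -1.43, -1.20, -1.44 and -1.30 in Sir2OE2, then -0.20, 0.23 and -0.50 in Sir2KD1 and 0.59, 0.31, 0.81 and 0.00 in Sir2KD2. Here too every overexpression array was below every knockdown array. The estimates were -1.25 ± 0.18 (SE, n = 3 arrays, limma adjusted p = 0.00825) for Sir2OE1 and -1.34 ± 0.15 (SE, n = 4, adjusted p = 0.000797) for Sir2OE2, while the knockdown lines, at -0.16 and 0.43, were not called. Without any single one of its own 3 arrays, the Sir2OE1 call was lost (adjusted p = 0.0693, 0.0612 and 0.11).

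Gstt1, a theta-class transferase that acts on small halogenated compounds, read -1.29, -1.43 and -0.99 in Sir2OE1 and -0.88, -0.96, -1.37 and -0.95 in Sir2OE2. In the knockdown lines it read -0.05, 0.04 and -0.18, and 0.53, 0.07, 0.22 and 0.41. The overexpression arrays again lay apart, and the third Sir2OE2 array stood below the rest of that line. The estimates were -1.23 ± 0.15 (SE, n = 3, limma adjusted p = 0.00319) and -1.04 ± 0.13 (SE, n = 4, adjusted p = 0.00124), against -0.07 and 0.31 in the knockdown lines, neither called.

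Ugt1a6a, which glucuronidates small planar phenols, was on the minus side in 3 lines. It read -1.19, -1.58 and -1.30 in Sir2OE1, -0.94, -0.85, -1.24 and -0.66 in Sir2OE2, and -1.27, -0.63 and -0.79 in Sir2KD1, but 0.41, 0.60, 0.03 and 0.23 in Sir2KD2. Only the Sir2KD2 arrays lay above 0. The estimates were -1.35 ± 0.18 (SE, n = 3, limma adjusted p = 0.00505), -0.92 ± 0.15 (SE, n = 4, adjusted p = 0.00701), -0.90 ± 0.18 (SE, n = 3, adjusted p = 0.0198) and 0.32 (adjusted p = 0.388). The knockdown lines differed from each other by 1.22 ± 0.23 (limma adjusted p = 0.0454), where 0.689% of all probes were called for that difference and Ugt1a6a was the 1 member. That call was lost in all 14 fits that left out an array (adjusted p from 0.0599 to 0.161). The Sir2KD1 call was lost without its slide 1 (-0.53, adjusted p = 0.287) or 3 (adjusted p = 0.0598), the Sir2OE1 call without slide 2 or 3 (0.0519 and 0.0824), and the Sir2OE2 call without slide 1 or 3 (0.0542 and 0.0634). Ugt1a transcripts share their last exons, and as the probe's position was not used here, the value may belong to other Ugt1a transcripts.

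**Figure D2:**
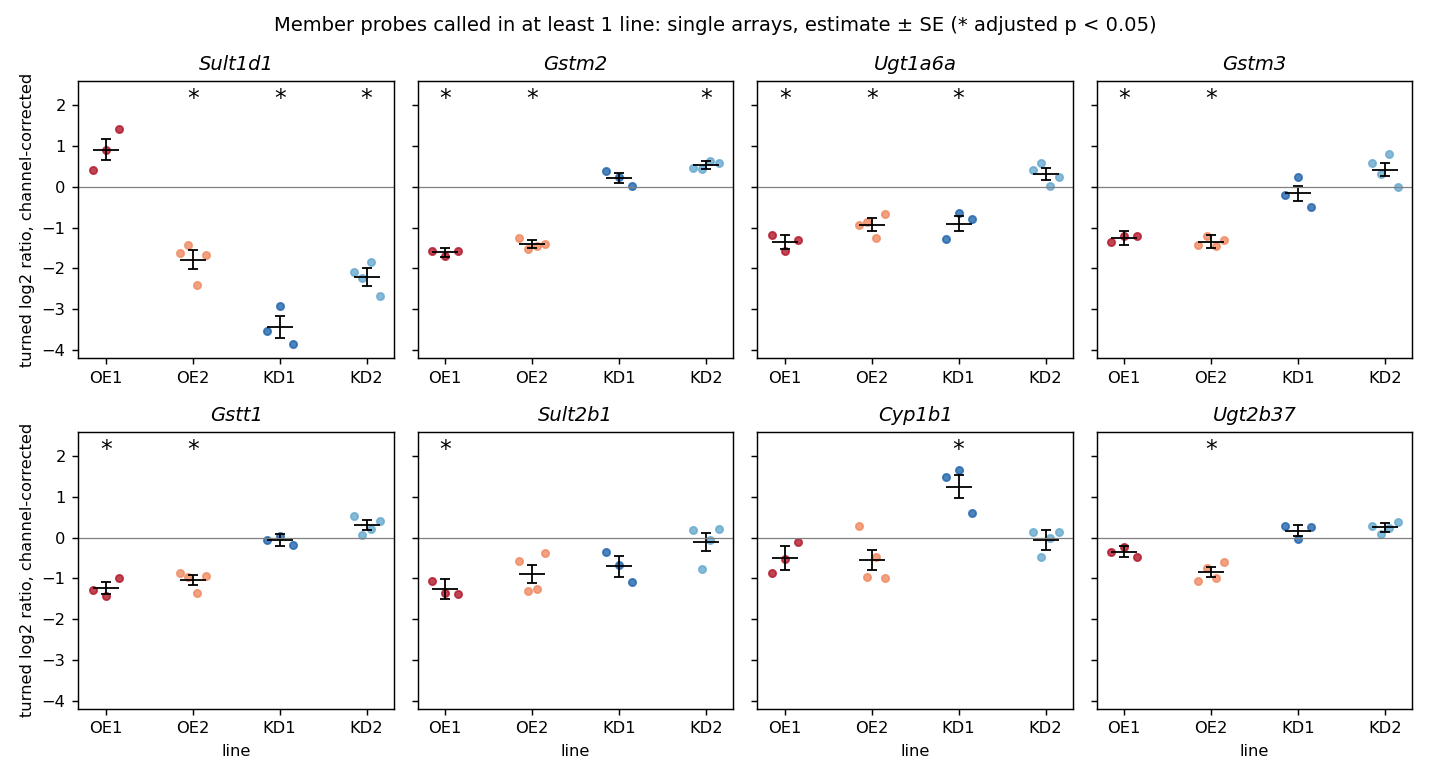
Turned, channel-corrected log2 ratio (y axis) of each array by line (x axis) for the 8 member probes called in at least 1 line, with the limma estimate ± SE as bars and a star at adjusted p under 0.05. Gstm2, Gstm3 and Gstt1 keep the 7 overexpression arrays below the 7 knockdown arrays, while Sult1d1 has Sir2OE1 alone above 0. How many of all probes separate in this way was not counted.

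Sult1d1, a sulfotransferase of catecholamines and other phenols, had the largest ratios of any member. The Sir2KD1 arrays read -3.52, -2.91 and -3.85 and the Sir2KD2 arrays -2.08, -2.24, -1.85 and -2.66. The Sir2OE2 arrays read -1.62, -1.43, -2.40 and -1.68, whereas those of Sir2OE1 read 0.41, 0.91 and 1.43. Every array of 3 lines was thus on the minus side and every array of Sir2OE1 on the plus side. The estimates were -3.43 ± 0.27 (SE, n = 3) in Sir2KD1, a 10.8-fold difference from control (limma adjusted p = 5.59e-05), and -2.21 ± 0.23 (SE, n = 4) in Sir2KD2, a 4.63-fold difference (adjusted p = 0.000759). It was the 1 member called on one side in both knockdown lines, as were 0.659% of all probes, and these lines share the mU6pro control RNA. In Sir2OE2 it was -1.78 ± 0.23 (SE, n = 4, limma adjusted p = 0.00154), and in Sir2OE1 0.92 ± 0.27 (SE, n = 3), which was not called (adjusted p = 0.203).

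The overexpressing lines differed in Sult1d1 by -2.70 ± 0.35 (limma adjusted p = 0.00987), the 1 member called for that difference, where 0.323% of all probes were called. This call was lost without slide 2 or 3 of Sir2OE1 or slide 1 of Sir2OE2 (adjusted p = 0.0609, 0.101 and 0.0501). The difference between the knockdown lines, 1.22, was not called (adjusted p = 0.181). On the same 14 arrays, the named genes outside the family with the profile most like that of Sult1d1 by Pearson r were Ctsa (0.981), Gap43 (0.956), Asph (0.952), Elavl4 (0.945) and Btg3 (0.941). These r values describe 14 arrays of 4 lines that share controls. The lysosomal protease Ctsa, the closest, was at 0.50, -0.26, -0.68 and -0.48, a smaller range than that of Sult1d1.

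Ugt2b37, a glucuronosyltransferase of the family that handles steroids and bile acids, was called in Sir2OE2 alone. It read -1.07, -0.75, -0.98 and -0.59 there and -0.35, -0.22 and -0.47 in Sir2OE1, with all knockdown arrays between -0.04 and 0.38. The estimate in Sir2OE2 was -0.85 ± 0.12 (SE, n = 4, limma adjusted p = 0.00247), and in Sir2OE1 -0.34 (adjusted p = 0.429). The difference between these lines in Ugt2b37, -0.50, was not called (limma adjusted p = 0.481). Sult2b1, which sulfates cholesterol and other sterols, read -1.06, -1.35 and -1.39 in Sir2OE1, where it was at -1.27 ± 0.25 (SE, n = 3, limma adjusted p = 0.045), a call lost in 11 of 14 fits that left out an array. In Sir2OE2 its arrays spread from -1.31 to -0.38, with an estimate of -0.89 (adjusted p = 0.057). The Sult2b1 arrays of Sir2KD1 ran from -1.09 to -0.34 and overlapped those of both overexpressing lines.

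Among the P450s, 1 of 49 probes was called in any line, that of Cyp1b1, which oxidises oestrogens and aromatic hydrocarbons and is a target of the aryl hydrocarbon receptor. It read 1.50, 1.65 and 0.60 in Sir2KD1, with an estimate of 1.25 ± 0.29 (SE, n = 3, limma adjusted p = 0.0424), a call lost in 9 of 14 fits that left out an array. In Sir2KD2 the arrays read 0.13, -0.48, -0.01 and 0.15, and none reached the lowest of Sir2KD1. The difference between the knockdown lines in Cyp1b1, -1.30, was nevertheless not called (limma adjusted p = 0.186). The 2 probes of Cyp1a1, another receptor target, were not called in any line and stood at 0.70 and -0.18 in Sir2OE2. The uncalled P450s with the smallest p of their family were Cyp2g1 at 1.20 in Sir2KD1 (adjusted p = 0.12), Cyp3a16 at -1.59 ± 0.45 in Sir2OE1 (adjusted p = 0.186) and the pseudogene Cyp4f41-ps at -0.95 in Sir2OE1 (adjusted p = 0.182).

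A probe that was not called was not thereby shown to be equal to control. The 95% confidence interval stayed within 2-fold either way for 31, 35, 33 and 37 of the 49 P450 probes in Sir2OE1, Sir2OE2, Sir2KD1 and Sir2KD2. For all members the counts were 55, 61, 60 and 67 of 88. Over all probes the shares were 73.4%, 80.3%, 66.2% and 77.9%. Among the P450 families the 4 Cyp1 probes had 0, 1, 1 and 2 intervals inside that range.

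The called Gst genes have uncalled neighbours of their own class. On chromosome 3 the measured mu-class genes run in the order Gstm5, Gstm7, Gstm6, Gstm3, Gstm2, Gstm1 and Gstm4, and Gstm3 and Gstm2 were the ones called. All 7 were below 0 in both overexpressing lines, but Gstm5 was at -0.01 and -0.02, Gstm4 at -0.04 and -0.07 and Gstm1 at -0.17 and -0.49. Gstm6 was at -0.81 ± 0.51 and -0.86 ± 0.43, too imprecise to set apart from 0 or from its neighbours. On chromosome 10, Gstt1 was called while Gstt3 (-0.08 and 0.01), Gstt4 (0.25 and -0.22) and Gstt2 (-0.53 and -0.48) were not. Near-identical transcripts of a class can bind each other's probes, and probe sequences were not used here. On chromosome 5 the measured genes Ugt2a3, Ugt2a1, Sult1b1 and Sult1e1 around Sult1d1 were not called in any line and lay between -0.40 and 0.45.

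**Figure D3:**
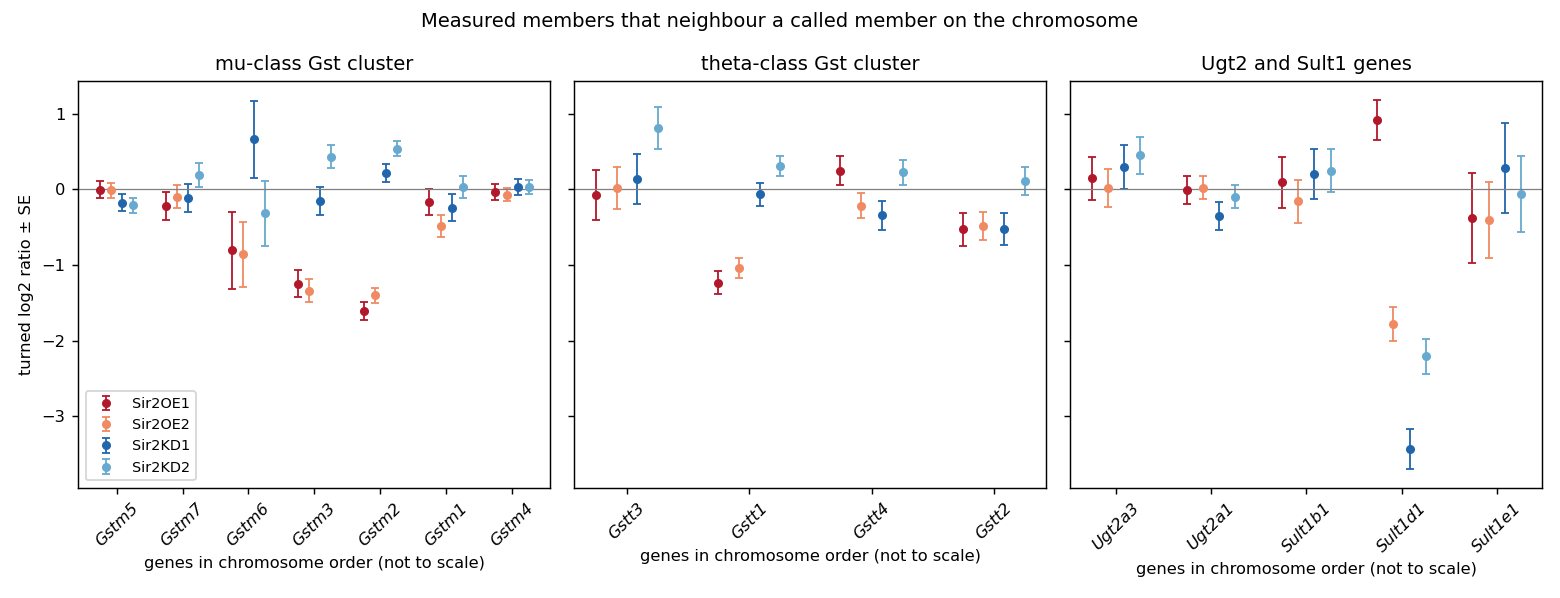
Turned log2 ratio ± SE (y axis) of measured member genes in chromosome order, not to scale (x axis), for the mu-class Gst genes, the theta-class Gst genes and the Ugt2 and Sult1 genes, coloured by line. Gstm3, Gstm2, Gstt1 and Sult1d1 stand away from 0 beside neighbours that were not called.

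The remaining classes held no called probe. Of the alpha class, Gsta3 was at 1.05 in Sir2KD1 and 0.93 ± 0.25 in Sir2KD2 (limma adjusted p = 0.0887 and 0.121). The mitochondrial and peroxisomal Gstk1 was at -0.78 in Sir2KD2 (adjusted p = 0.316), Gsto1 at -0.30 in Sir2OE1 (adjusted p = 0.61) and Gstz1, of tyrosine breakdown, at -0.38 in Sir2KD1 (adjusted p = 0.137). Gstp1 was at -0.33 in Sir2OE2 (adjusted p = 0.46), but its overexpression arrays belong to 329 probes that carry a shared ratio pattern, matched within 1 percentage point on at least 5 of 7 arrays, so these values are not specific to that gene. No other member was among those, or among the 173 such probes of the knockdown arrays. The uncalled sulfotransferase nearest the threshold was Sult4a1, a brain-type form, at 0.93 ± 0.22 in Sir2OE2 (adjusted p = 0.0538), on the plus side in 4 of 4 arrays.

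The mean of the overexpressing lines differed from the mean of the knockdown lines for 7 members, 2 on the plus and 5 on the minus side, where 2.66% of all probes were called, 1.54% and 1.12%. On the minus side were Gstm2 at -1.88 ± 0.11 (limma adjusted p = 9.18e-06), Gstm3 at -1.43 ± 0.17 (0.00101), Gstt1 at -1.26 ± 0.14 (0.000682), Ugt1a6a at -0.85 ± 0.16 (0.0205) and Ugt2b37 at -0.80 ± 0.13 (0.0072). On the plus side were Sult1d1 at 2.39 ± 0.25 (0.000449) and Ugt2b5, a further steroid-type glucuronosyltransferase, at 0.66 ± 0.14 (0.0382). For Sult1d1 the overexpression mean joins opposite sides, 0.92 in Sir2OE1 and -1.78 in Sir2OE2, and Sir2OE2 was on the side of the knockdown lines (-3.43 and -2.21). For Ugt1a6a the knockdown mean joins -0.90 in Sir2KD1 and 0.32 in Sir2KD2. The Ugt1a6a call was lost in 6 and the Ugt2b5 call in 12 of 14 fits that left out an array, with adjusted p up to 0.111 for Ugt2b5. If the knockdown ratios have the other channel on top, the sign of Sult1d1 reverses to -3.25, Gstm2 is at -1.13, Gstm3 at -1.16, Gstt1 at -1.02 and Ugt1a6a at -1.43, Ugt2b37 is not called, Ugt2b5 is at -0.18 and not called, and Sult1c2 (-1.47) and Sult2b1 (-1.48) are. Gstm2, Gstm3, Gstt1 and Ugt1a6a were thus called on the minus side under either reading.

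**Figure D4:**
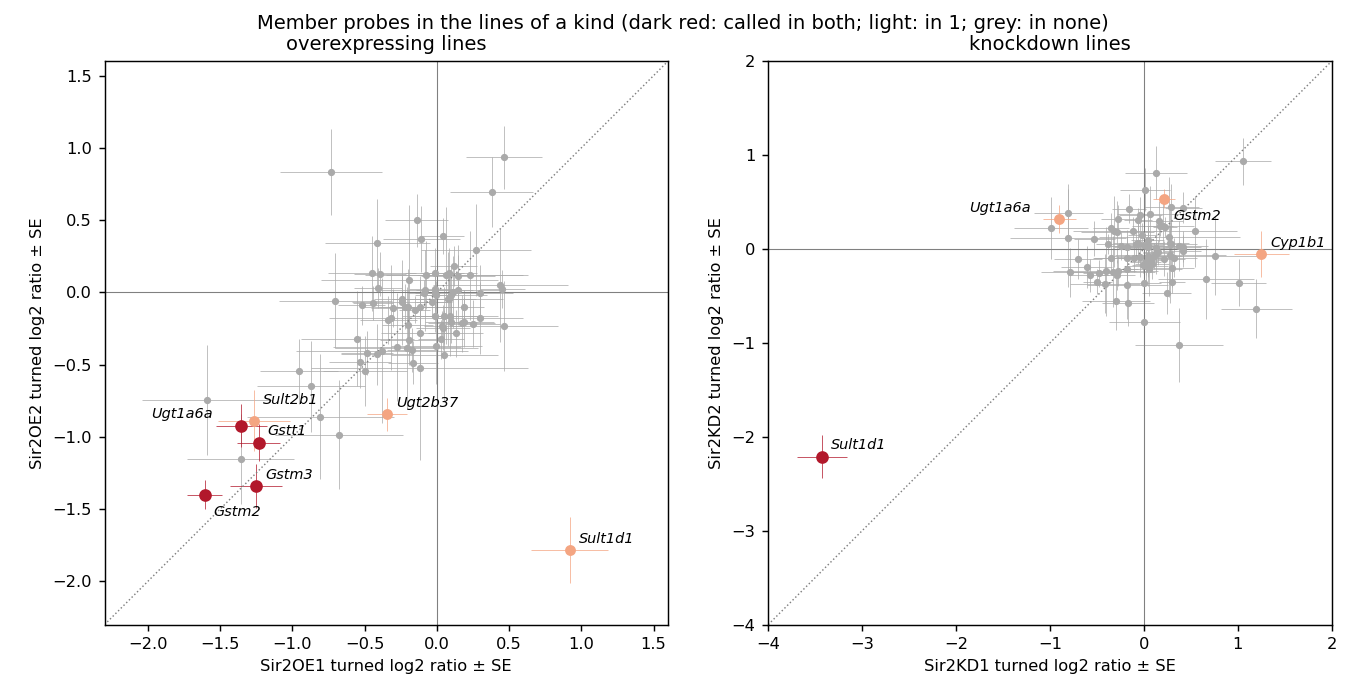
Turned log2 ratio ± SE of each member probe in the first line of a kind (x axis) and in the second (y axis), for the overexpressing lines (left) and the knockdown lines (right), with dark points called in both lines and light points in 1. Gstm2, Gstm3, Gstt1 and Ugt1a6a lie near the dotted line of equal values on the left, where Sult1d1 lies far below it, at 0.92 and -1.78. The lines of a panel share control RNA.

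Around these enzymes, 72 of 88 related genes listed for the pathway were measured, with 78 probes. The list was drawn up with earlier results of these data known. Of these probes, 13 were called in at least 1 line. In Sir2OE1, 0 were called on the plus and 2 on the minus side, in Sir2OE2 1 and 5, in Sir2KD1 4 and 6, and in Sir2KD2 3 and 1. Of all probes, 6.4% were called in at least 1 line, and 1.06%, 2.81%, 3.59% and 1.34% in the single lines. Of 5 electron donors listed, 4 were measured, and P450 reductase (Por) was not among them. Of the electron donors measured, 0 of 4 probes were called in any line. Among 14 probes of receptors and factors, 1 was, a probe of the hepatocyte and beta-cell factor Hnf4a, at -1.17 in Sir2KD1 (limma adjusted p = 0.0123) and -0.97 in Sir2KD2 (0.0246). A second Hnf4a probe was not called and lay on the other side in those lines, at 0.37 and 0.08, so the probes of this gene disagree. The aryl hydrocarbon receptor Ahr (-0.08, -0.47, -0.17 and -0.15) and Nfe2l2 (-0.22, -0.33, 0.21 and 0.32) were not called.

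The conjugate exporter Abcc3 was called in all 4 lines, at -1.41 ± 0.20 and -1.02 ± 0.17 in the overexpressing lines (limma adjusted p = 0.00825 and 0.00849) and 1.24 ± 0.20 and 1.13 ± 0.17 in the knockdown lines (0.00767 and 0.00888). How many of all probes were called in all 4 lines was not counted. Fits that left out an array or changed the processing were read for member probes alone, so whether the related-gene calls hold in them was not tested. The membrane-bound glutathione transferase Mgst3 was at -0.99 and -0.58 (limma adjusted p = 0.00839 and 0.0277), then -0.09 (not called) and 0.64 (0.0313), the same sides as Gstm2 in the lines where both were called. Hpgds, a sigma-class transferase that makes prostaglandin D, was called at -0.69 in Sir2OE2 and -1.20 in Sir2KD1. The hydrolase Cmbl was called on the plus side at 1.00 in Sir2OE2, 1.84 in Sir2KD1 and 1.46 in Sir2KD2. Papss1, which makes the sulfate donor of sulfotransferases, was called at -0.63 in Sir2OE2 alone. Papss2, of the same list, was called in no line, at 0.15, -0.21, -0.44 and -0.35. The others called were 1 of 3 Arsb probes in Sir2OE2 (-0.54, with the rest at -0.06 and -0.25, not called) and, in Sir2KD1, Adh1 (0.77), Mat1a (0.66), Aldh3a2 (-0.72), Nat2 (-0.69), and the exporters Abcb1a (-0.75) and Abcg2 (-1.25).

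**Figure D5:**
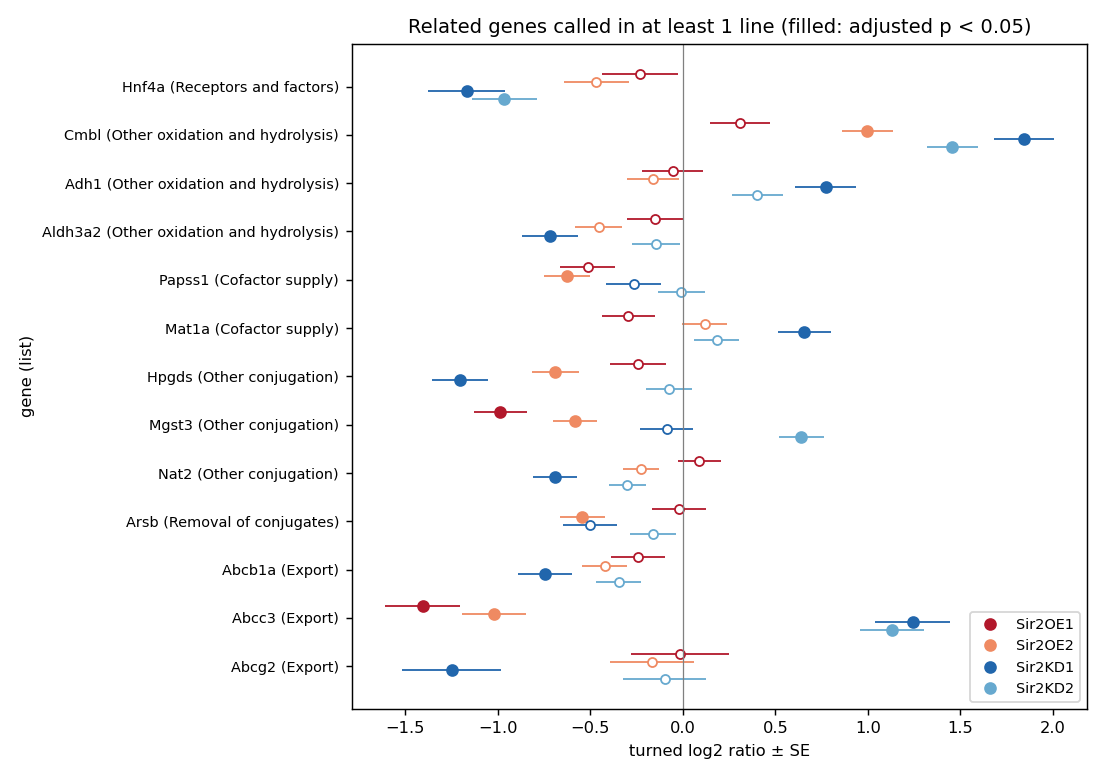
Turned log2 ratio ± SE (x axis) of the 13 related-gene probes called in at least 1 line, by gene and list (y axis), with filled points at adjusted p under 0.05 in limma. Abcc3 is filled in all 4 lines, below 0 in the overexpressing and above 0 in the knockdown lines.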

How the data were processed

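RNA of 4 MIN6-derived lines was compared with control RNA on 14 2-channel arrays. The authors deposited log2 ratios of the channels; software, background correction, normalization and ratio direction were not given in the sources used here. Summed over arrays, the deposited values of each complete probe give 0 for 6 of 7 arrays of a kind (largest deviation 5.6e-08), so a constant per probe and kind was removed. No intensities were used, so background cannot be judged, and precision is limited by how many arrays there are.

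Symbols came from the platform annotation of 2007, updated through Entrez identifiers with the GRCm38.p6 gene table (16885 probes with 1 symbol, 143 with several, 6204 with none). The fit used limma 3.58.1 (lmFit, eBayes; R 4.3.3) on probes present on 2 or more arrays per line, with a coefficient per line, a channel term per kind and Benjamini-Hochberg adjustment over 23230 probes at 0.05. The procedure was tested on simulated data.

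Members called in at least 1 line are named, with other probes of those genes, the strongest uncalled probe of classes with none called, called related genes, and the 5 most alike genes. A few others, such as neighbours, Ahr and Nfe2l2, were chosen after their values were seen, as was the motif set. Members and lists were chosen with earlier results of these data known. Probes Iapp, Ttr and Adh7 in all arrays, and Ins2 and Gcg in the overexpression arrays, carry the shared ratio pattern described for Gstp1. Marker lists of acinar (0 of 5 probes called), other islet endocrine (0 of 5), mesenchymal and immune (0 of 8) and duct cells (2 of 4, Krt7 and Krt19) were also read. Alternatives were the channel term, array scaling, robust variance, a replicate block, subsets of arrays and probes, the ratio's direction, and the line as the replicate.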

Additional observations from a re-analysis of the deposited data

Results flagged for a closer look

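Gstt1 had 1 array apart from the rest of its line: in Sir2OE2 the third array, at -1.37, lay below the others, at -0.88, -0.96 and -0.95, and the gap was 0.841 of the line's range. Chance flags about 1 in 20 groups in this way. The Gstt1 call in Sir2OE2 was kept in every fit that left out an array.

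Sult1d1 differed between the overexpressing lines by -2.7 (limma adjusted p = 0.00987), with 3 of 3 Sir2OE1 arrays on the plus side and 4 of 4 Sir2OE2 arrays on the minus side. The call for this difference was lost in 3 of 14 fits that left out an array.

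Ugt1a6a differed between the knockdown lines by 1.22 (limma adjusted p = 0.0454), with 3 of 3 Sir2KD1 arrays on the minus side and 4 of 4 Sir2KD2 arrays on the plus side. The call for this difference was lost in all 14 fits that left out an array.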

How the results depend on the processing

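The members called in a line or for a difference gave 25 called results. Of these, 14 stayed called in every fit that left out an array. Under every setting that kept the array as the unit, 12 stayed called. Taking the line as the replicate is not among those settings, and it called 0 members. Leaving out each array in turn gave 2 to 5 members called in Sir2OE1, 5 to 8 in Sir2OE2, 1 to 5 in Sir2KD1, 1 to 3 in Sir2KD2, 0 to 1 for Sir2OE2 minus Sir2OE1, 0 to 1 for Sir2KD2 minus Sir2KD1, 5 to 8 for overexpression minus knockdown, 2 to 5 on the same side in both overexpressing lines and 1 to 2 in both knockdown lines. In the check of the ratio orientation, the turned difference ranged from 5 to 53 probes in the overexpressing and 77 to 189 in the knockdown lines, and the unturned one from 0 to 1 and 25 to 178, over the 12 of 14 fits that could be made. Without slide 1 of Sir2KD2 the knockdown counts were 84 turned and 178 unturned, which goes against the turn.

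Without a channel term, 7 members were called in Sir2KD1, 11 for overexpression minus knockdown and 2 in both knockdown lines. With arrays brought to 1 scale, 1 was called in Sir2KD1, 1 in Sir2KD2 and 0 for Sir2KD2 minus Sir2KD1, and the orientation check gave 117 and 86 turned and 28 unturned (knockdown). Robust variance gave 0 and 44 unturned. With arrays of 1 kind alone, 1 was called in Sir2KD1, 1 in Sir2KD2 and 0 for either line difference, and the orientation check gave 12 and 0 turned and 0 and 0 unturned. With values taken as line over control already, 0 members were called for either line difference, and that of Sult1d1 between the overexpressing lines reversed to 0.2915. With the knockdown ratios turned over, Sult1d1 for overexpression minus knockdown reversed to -3.253 and Ugt2b5 to -0.1816. The cause of these changes was not tested.

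Taking each line as 1 replicate, limma called 0 members, and 0 of all probes, for overexpression, knockdown or their difference. At an unadjusted p under 0.05, 18, 8 and 11 of 88 members passed, and 6.99%, 10.2% and 7.84% of probes.

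Slides share numbers across lines. For the deviations of same-numbered slides, r was -0.245, -0.228 and -0.355 between Sir2OE1 and Sir2OE2. Between Sir2KD1 and Sir2KD2 it was -0.389, 0.237 and -0.235. Arrays of a kind were centred together per probe and share a channel term, which ties their deviations. These r values therefore cannot show whether same-numbered slides are paired. With a replicate block by slide number, 3 members were called in Sir2OE1, 1 in Sir2KD1, 1 in Sir2KD2 and 0 for either line difference, and the orientation check gave 0 for all 4 counts.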
